A study of Danio rerio with 2 samples.

Results

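Collagens that build and coat fibrils were followed along 2 cryoinjured zebrafish hearts, 1 taken at 3 and 1 at 7 days post injury (dpi). The genes were chosen by zebrafish name (col1a1a, col1a1b, col1a2, col5a1, col5a2a, col11a1a, col12a1a and col12a1b) and found by symbol, in any case and with or without a final a or b, among the Ensembl gene IDs of the count tables. They are 8 of 18139 gene IDs in the tables. Apart from col1a1a they carry capital symbols there. COL1A1 (ENSDARG00000035809) was taken as col1a1b because col1a1a (ENSDARG00000012405) has its own ID, and COL5A2 and COL11A1 were taken as col5a2a and col11a1a because col5a2b and col11a1b have theirs. A pair of IDs share the symbol COL12A1 and cannot be assigned to col12a1a or col12a1b, so ENSDARG00000019601 is called the first COL12A1 gene and ENSDARG00000078322 the second. All 8 genes had at least 50 counts in each heart, from 64 counts for COL11A1 to 5681 for col1a1a, both at 7 dpi, and none was lost to a filter on low counts.

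Fibrillar collagens are made as procollagen chains that wind into triple helices, are trimmed outside the cell, and pack into the fibrils that give a wound its tensile strength. Type I collagen is the bulk of such fibrils and is assembled from alpha 1 and alpha 2 chains, and zebrafish carry duplicated alpha 1 genes, col1a1a and col1a1b. Type V and type XI chains are minor fibrillar collagens that start fibrils and limit their width, type XI being best known from cartilage. Type XII collagen does not form fibrils itself but sits on their surface and links them to other matrix. In the zebrafish heart, fibroblasts and epicardium-derived cells are known sources of the collagen that is laid down after cryoinjury and is later cleared as muscle regrows.

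Both hearts were adult ventricles labelled WT (taken as wild type), in which part of the wall had been killed by freezing. Each was cut into 12 µm cryosections from the injured end toward uninjured, remote muscle, and each section was sequenced by CEL-seq, which tags the ends of polyadenylated transcripts. An uninjured heart was not analysed here. With 1 heart per day there was no replicate error and no test, sections of a heart not being replicates. Ranges in parentheses are exact 95% intervals of the counts (Poisson for a level, conditional binomial for a fold, binomial for a share), and they cover counting error only. It is not stated whether reads were collapsed by molecular identifiers. Without that, reads are not separate molecules, and the intervals would be too narrow even for counting error.

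The 3 dpi heart had 40 sections, of which 35 had enough counts to be kept (39495 to 302404 each), and the 7 dpi heart had 38, of which 24 were kept (20832 to 813848 each). Levels are CPM, gene counts scaled to a common library total. Kept sections were divided into 3 stretches by a least-squares fit that used none of the 8 collagens or of the genes in the pathway and marker lists, and the stretches are called injury-side, middle and remote-side. They ran over sections 1 to 10, 11 to 20 and 21 to 40 at 3 dpi (5, 10 and 20 kept sections) and over sections 1 to 7, 8 to 21 and 22 to 34 at 7 dpi (5, 12 and 7 kept sections). Cardiomyocyte markers summed to 14060, 41090 and 61640 CPM in these domains at 3 dpi but to 271, 1287 and 26940 CPM at 7 dpi, where 9 of 13 of their IDs had 0 counts on the injury side. Muscle was thus present as labelled, but domains of the same name were not the same tissue in the 2 hearts.

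At 3 dpi the collagens were highest in the injury and lower toward the remote muscle. Summed over the 8 genes, the level was 4371 CPM (4123 to 4630) on the injury side, 2650 CPM (2548 to 2755) in the middle and 999 CPM (962 to 1037) on the remote side, which made the injury side 4.38-fold higher than the remote side (4.08 to 4.69). Of the 8 genes, 7 passed 2-fold toward the injury and 0 toward the remote muscle, where 33.8% of the 4784 genes measured in that heart were higher and 15.8% were lower. The median log2 difference of the 8 genes was 1.98, against 0.54 for all genes measured. In bulk sections, fewer cells of a type and less RNA per cell cannot be told apart.

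Among the 8 genes, only the type I alpha 1 genes had no overlap of kept sections between the ends at 3 dpi. In the injury-side sections 1, 7, 8, 9 and 10, col1a1a stood at 1476, 690, 635, 1081 and 518 CPM, and in the 20 remote-side sections it ranged from 76.0 to 508 CPM with a median of 154. COL1A1 stood at 2877, 1725, 1178, 1599 and 837 CPM in the same injury-side sections, against 22.1 to 699 CPM (median 260) on the remote side. For both genes every kept injury-side section was above every kept remote-side section, by a narrow margin for col1a1a. The share of all genes without such overlap is not given here, so it is not read as particular to these genes. Sections 2 to 6 were left out for low totals. There the 8 genes summed to 941 to 5759 CPM by section, which reaches into the remote-side range of 232 to 2520 CPM. The domain levels were 4.22-fold (3.59 to 4.94) apart for col1a1a and 5.28-fold (4.68 to 5.95) apart for COL1A1.

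The alpha 2 gene of type I collagen, COL1A2, overlapped between the ends of the 3 dpi heart. It stood at 1301, 831, 666, 519 and 1056 CPM in injury-side sections 1, 7, 8, 9 and 10, and at 44.2 to 587 CPM (median 200) on the remote side. Only section 9 of the injury side lay under the highest remote-side section, number 21. The domain levels were 850 and 230 CPM, a 3.70-fold difference (3.17 to 4.32).

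Type V chains, which start type I fibrils, had folds close to that of COL1A2 at 3 dpi, with overlapping intervals. COL5A1, the alpha 1 chain, stood at 576, 612, 186, 130 and 458 CPM in injury-side sections 1, 7, 8, 9 and 10, and at 0 to 310 CPM (median 83.5) on the remote side. COL5A2, the alpha 2 chain, stood at 375, 376, 279, 367 and 219 CPM, against 25.3 to 244 CPM (median 73.2). Sections 8 and 9 for COL5A1 and section 10 for COL5A2 fell within the remote-side range, and the domain folds were 3.36 (2.66 to 4.21) and 3.45 (2.66 to 4.42).

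COL11A1, a type XI chain, had the largest fold of the 8 genes at 3 dpi. Its injury-side sections held 626, 188, 217, 195 and 79.7 CPM, and 10 of the 20 remote-side sections held 0 counts of it, with a remote-side maximum of 132 CPM in section 21, the section next to the middle. The 64 injury-side and 47 remote-side counts gave 242 and 17.5 CPM, a 13.9-fold difference (9.36 to 20.6). Of its injury-side counts, 39.1% came from section 1, which held 15.1% of the domain's total, and without section 1 its log2 difference was 3.24 in place of 3.72. It was also the one collagen past 2-fold between injury side and middle (2.20-fold, 1.59 to 3.03), where 14% of all genes were higher and 13.8% lower.

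The COL12A1 genes went apart at 3 dpi. The second one stood at 175, 157, 93.0, 130 and 39.9 CPM in the injury-side sections and at 0 to 86.4 CPM (median 23.05) on the remote side, a 5.26-fold difference (3.29 to 8.24) from 31 and 60 counts. The first one stood at 25.02, 62.7, 62.0, 21.6 and 39.9 CPM, against 0 to 127 CPM (median 16.2), and its fold of 1.80 (0.884 to 3.34) rested on 12 injury-side counts. All 5 of its injury-side sections were within the remote-side range, and its log2 difference turned from 0.82 to −0.02 under median-of-ratios scaling.

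The step from the middle to the remote side at 3 dpi was shared by all 8 genes on the CPM scale. Each was at least 2-fold higher in the middle than on the remote side, from 2.17-fold (1.79 to 2.62) for COL5A2 to 6.29-fold (4.42 to 9.07) for COL11A1, and 0 were lower, where 16.1% and 2.86% of all genes were. That count went from 8 to 1 when libraries were scaled by the median of ratios. The share of all genes for that step under this scaling is not given here. The same scaling moved the median injury-side difference of all genes from 0.54 to −0.31, their split into higher and lower from 1616 and 758 to 518 and 1469, and the number of collagens past 2-fold toward the injury from 7 to 5. Counted from the median of all genes, the median of the 8 collagens lay 1.43 higher on the log2 scale with CPM and 1.42 higher with that scaling. Rescaling moves all genes nearly alike, so this distance could hardly change and is no check of the scaling.

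**Figure D1:**
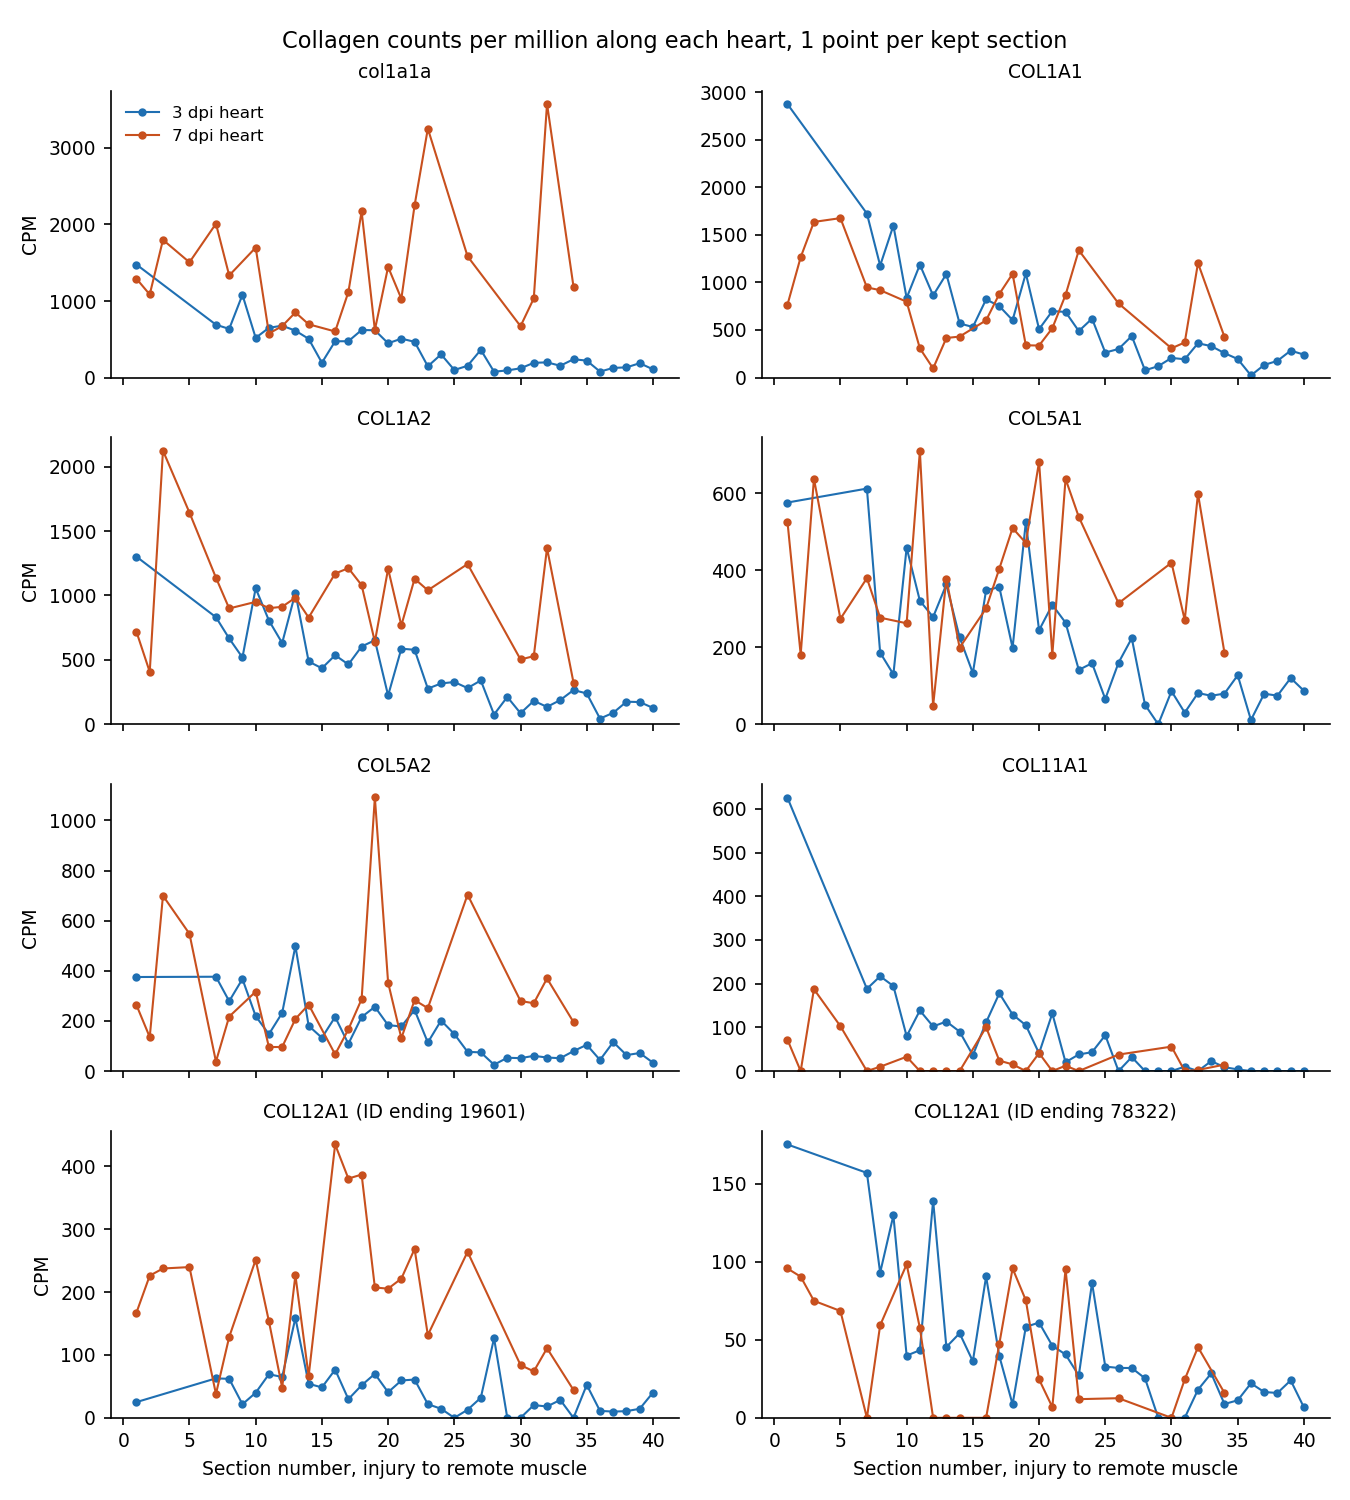
CPM of each gene (vertical axes, a scale of its own per panel) in every kept section from the injury outward (horizontal axis), with the 3 dpi heart in blue and the 7 dpi heart in orange. In the 3 dpi heart 5 of the 8 genes were highest in section 1, which held 1.02% of its kept counts. In the 7 dpi heart col1a1a was highest in section 32 near the remote end.

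At 7 dpi the summed collagens were at similar levels in the 3 domains but uneven from section to section. Their summed level was 5647 CPM (5322 to 5987) on the injury side, 4103 CPM (3984 to 4225) in the middle and 4390 CPM (4296 to 4485) on the remote side. The injury side was 1.29-fold above the remote side (1.21 to 1.37), and this small difference was not stable: its log2 value of 0.36 became −0.06 without section 34, which held 25.5% of the kept counts of that heart. Injury-side sections 1, 2, 3, 5 and 7 summed to 3898, 3390, 7397, 6058 and 4550 CPM, and the 7 remote-side sections to between 2320 and 7274 CPM with a median of 4940. Section 34, the highest in cardiomyocyte markers (41360 CPM), had the lowest remote-side COL1A2 (323 CPM), COL5A1 (186) and COL5A2 (195). Its col1a1a (1187 CPM) and COL1A1 (428) were not the lowest there. Section 32 held 1368, 598 and 370 CPM of COL1A2, COL5A1 and COL5A2. Of the 8 genes, 1 passed 2-fold toward the injury and 0 passed it the other way, where 15.4% and 31.1% of 4608 genes were, so the count of 1 is near the background. For the 8 genes the median log2 difference was 0.76, against −0.20 for all genes measured. Under median-of-ratios scaling these medians were 0.51 and −0.46.

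The type I chains no longer ran in parallel at 7 dpi. In injury-side sections 1, 2, 3, 5 and 7, col1a1a stood at 1291, 1085, 1799, 1506 and 2010 CPM, and the remote-side sections spanned 671 to 3576 CPM with a median of 1584. COL1A1 stood at 765, 1266, 1637, 1677 and 948 CPM, against 308 to 1339 CPM (median 779), and COL1A2 at 718, 407, 2124, 1643 and 1138 CPM, against 323 to 1368 CPM (median 1040). All 3 genes overlapped between the ends, col1a1a with all 5 of its injury-side sections inside the remote-side range.

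The domain levels gave different directions for the type I chains at 7 dpi. COL1A1 and COL1A2 were each about 1.8-fold higher on the injury side, at 1.81 (1.58 to 2.06) and 1.80 (1.58 to 2.05). The col1a1a level was 0.797 times the remote-side one (0.708 to 0.893), with 1599 and 2007 CPM. Section 32 held 37.3% of the remote-side col1a1a counts with 20.9% of that domain's total, and without it the col1a1a log2 difference went from −0.33 to 0.0060. Without that section, 3 collagens passed 2-fold toward the injury, a count with no share of all genes beside it here.

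Among the minor chains at 7 dpi, COL11A1 alone was past 2-fold between the ends. It stood at 71.8, 0, 187, 103 and 0 CPM in injury-side sections 1, 2, 3, 5 and 7 and at 0 to 55.9 CPM (median 12.2) on the remote side, from 21 and 23 counts, a fold of 8.70 (4.58 to 16.4). Section 3 held 71.4% of those 21 counts, and its log2 difference of 3.02 became 1.97 without that section and 1.15 when sections of lower depth were admitted. Against the middle it was 5.75-fold higher (2.97 to 11.2), the one collagen past 2-fold there, where 8.07% of all genes were higher and 29.9% lower. COL5A1 was 1.196-fold above the remote side (0.956 to 1.48) and COL5A2 1.56-fold (1.23 to 1.962).

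In the 7 dpi heart the COL12A1 genes had their highest level in different domains, but for each gene the injury-side and middle intervals overlapped. The first one stood at 195 CPM (139 to 267) on the injury side, 256 CPM (227 to 288) in the middle and 122 CPM (106 to 138) on the remote side. It was 2.11-fold higher in the middle than on the remote side (1.77 to 2.52), the one collagen to pass 2-fold in that comparison, where 14.5% of all genes were higher and 13.4% lower. The second one stood at 70.2 CPM (38.4 to 118), 56.7 CPM (43.5 to 72.7) and 38.9 CPM (30.6 to 48.9) in the same order, from 14, 62 and 74 counts.

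**Figure D2:**
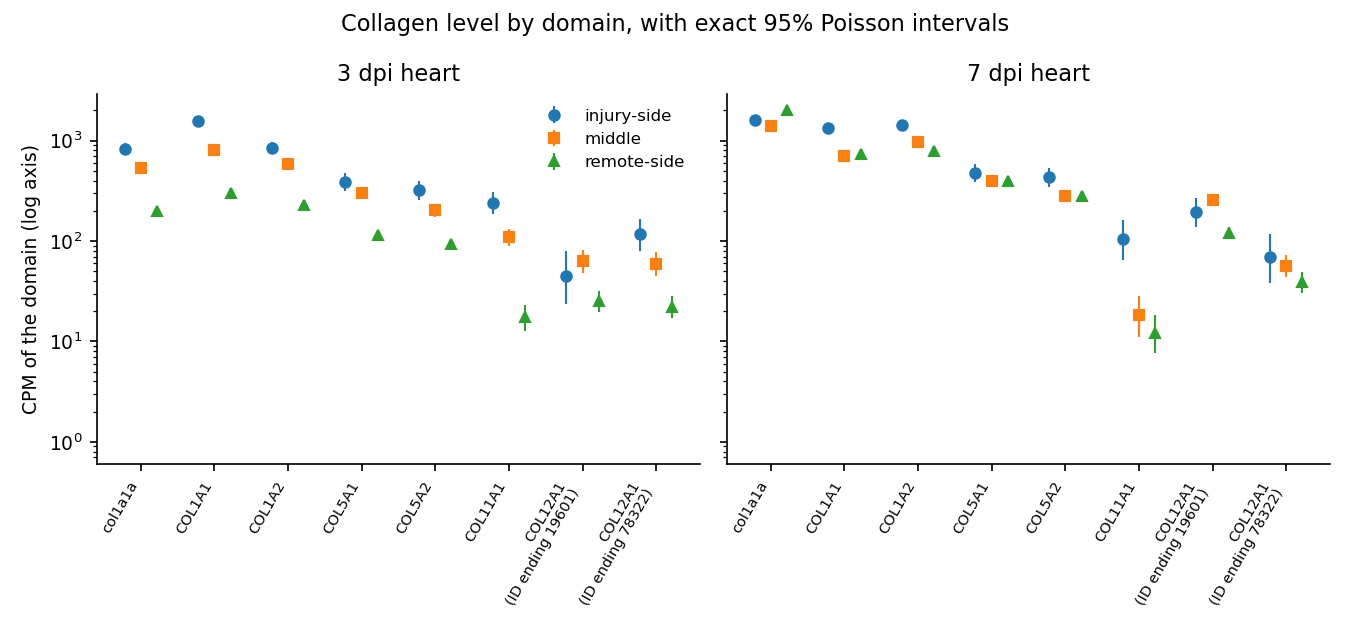
CPM of each gene by domain on a log axis, 3 dpi in the left panel and 7 dpi in the right, with exact 95% Poisson intervals of the counts as bars. Injury-side, middle and remote-side levels step down at 3 dpi for 7 of the 8 genes, and at 7 dpi only COL11A1 is past 2-fold between the ends, with col1a1a highest on the remote side.

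The difference between the ends was smaller at 7 than at 3 dpi for 6 of the 8 genes by 95% intervals wholly below 0, where 39.1% of 3171 genes with counts in all 4 end domains were. The median change was −1.32 on the log2 scale for the 8 collagens and −0.93 for those genes. These intervals use a normal approximation of the log counts and are narrower for genes with more counts. On the log2 scale, the injury-side minus remote-side difference was 2.40 lower at 7 dpi for col1a1a (the change was −2.40, −2.68 to −2.12), and the change was −1.55 for COL1A1 (−1.80 to −1.29) and −1.04 for COL1A2 (−1.32 to −0.75). It was −1.49 for COL5A1 (−1.94 to −1.05), −1.14 for COL5A2 (−1.62 to −0.66) and −1.54 for the second COL12A1 gene (−2.58 to −0.51). Under median-of-ratios scaling the change of the second COL12A1 gene was −0.93 with an interval that held 0 (−1.97 to 0.10). With that scaling 5 of 8 intervals lay wholly below 0, where 22.1% of all genes did. The medians were then −0.71 for the collagens and −0.32 for all genes. On the CPM scale the intervals held 0 for COL11A1 (−0.67, −1.68 to 0.34) and for the first COL12A1 gene (−0.16, −1.17 to 0.85). These compare 1 heart with 1 heart, so the day and the animal cannot be told apart.

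Over all kept sections, most of the collagens were higher in the 7 dpi heart. The summed level was 1630 CPM (1591 to 1671) at 3 dpi and 4370 CPM (4298 to 4443) at 7 dpi, a 2.68-fold difference (2.60 to 2.76). Of the 8 genes, 5 were at least 2-fold higher at 7 dpi and 1 was lower, where 28.9% and 21% of 5883 genes were. The median log2 difference of the 8 was 1.13, against 0.14 for all genes measured. Under median-of-ratios scaling 3 were higher and 1 lower, while all genes split 1474 higher and 1468 lower in place of 1702 and 1234.

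The alpha 1 genes of type I collagen differed in how far they were apart between the hearts. Over kept sections, col1a1a ranged from 76.0 to 1476 CPM (median 303) at 3 dpi and from 575 to 3576 CPM (median 1239) at 7 dpi. COL1A1 ranged from 22.1 to 2877 CPM (median 509) at 3 dpi and from 96.0 to 1677 CPM (median 772) at 7 dpi. For col1a1a, 9 of the 24 sections at 7 dpi were above every 3 dpi section, while for COL1A1 none was. The pooled folds of 7 against 3 dpi were 5.52 (5.19 to 5.87) for col1a1a and 1.497 (1.41 to 1.59) for COL1A1.

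The other chains lay between these or outside them. COL1A2 was 2.51-fold higher at 7 dpi (2.36 to 2.68), COL5A1 2.25-fold (2.05 to 2.47) and COL5A2 2.15-fold (1.93 to 2.40). The first COL12A1 gene was 4.81-fold higher (3.99 to 5.84), with 14 of the 24 sections at 7 dpi above every 3 dpi section, and the second was 1.24-fold higher (0.983 to 1.57). COL11A1 was the one gene lower at 7 dpi, at 20.04 against 55.2 CPM, a 2.75-fold difference (2.08 to 3.70).

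By place, the difference between the hearts was largest on the remote side. The median log2 difference of the 8 genes was 0.37, 0.45 and 1.67 from injury side to remote side, and that of all genes was −0.73, −0.05 and 0.27. In the remote-side domains 6 of 8 were at least 2-fold higher at 7 dpi and 0 lower, where 32.6% and 18.9% of all genes were, led by col1a1a at 10.2-fold (9.29 to 11.2) with 197 CPM at 3 dpi and 2007 at 7 dpi. In the middle domains col1a1a (2.65-fold, 2.40 to 2.94) and the first COL12A1 gene (4.08-fold, 3.08 to 5.49) were higher and COL11A1 was lower (6-fold, 3.70 to 10.2), where 26.2% and 28.1% of all genes were higher and lower. On the injury side only the first COL12A1 gene was higher (4.31-fold, 2.21 to 9.04, from 12 counts at 3 dpi) and only COL11A1 lower (2.30-fold, 1.39 to 3.96), where 18.2% and 44.5% of all genes were. Under median-of-ratios scaling 3 collagens were higher there and 0 lower, where 1299 and 2332 of 5883 genes were. COL11A1 was then at −0.92 on the log2 scale in place of −1.19. COL1A1 was 0.843 times its 3 dpi level there (0.720 to 0.986), while col1a1a was 1.92-fold higher (1.62 to 2.29).

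Beside these folds the tissue itself was not matched. Cardiomyocyte markers summed to 61640 CPM in the remote-side domain at 3 dpi and 26940 CPM at 7 dpi, and the epicardium and fibroblast markers to 3385 and 15600 CPM. Smooth muscle and valve markers summed to 1131 and 4393 CPM there, with 7 of 7 measured genes past 2-fold toward 7 dpi. Endothelium markers summed to 398 and 1017 CPM, with 2 of 8 higher and 1 lower, where 32.6% and 18.9% of all genes were. Most of the counts of the epicardium and fibroblast list came from krt8, ANXA2 and FN1 (the last also held by the fibril assembly list), while TCF21 had 84 and 55 counts in all. The part of these differences in the collagen folds was not tested.

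**Figure D3:**
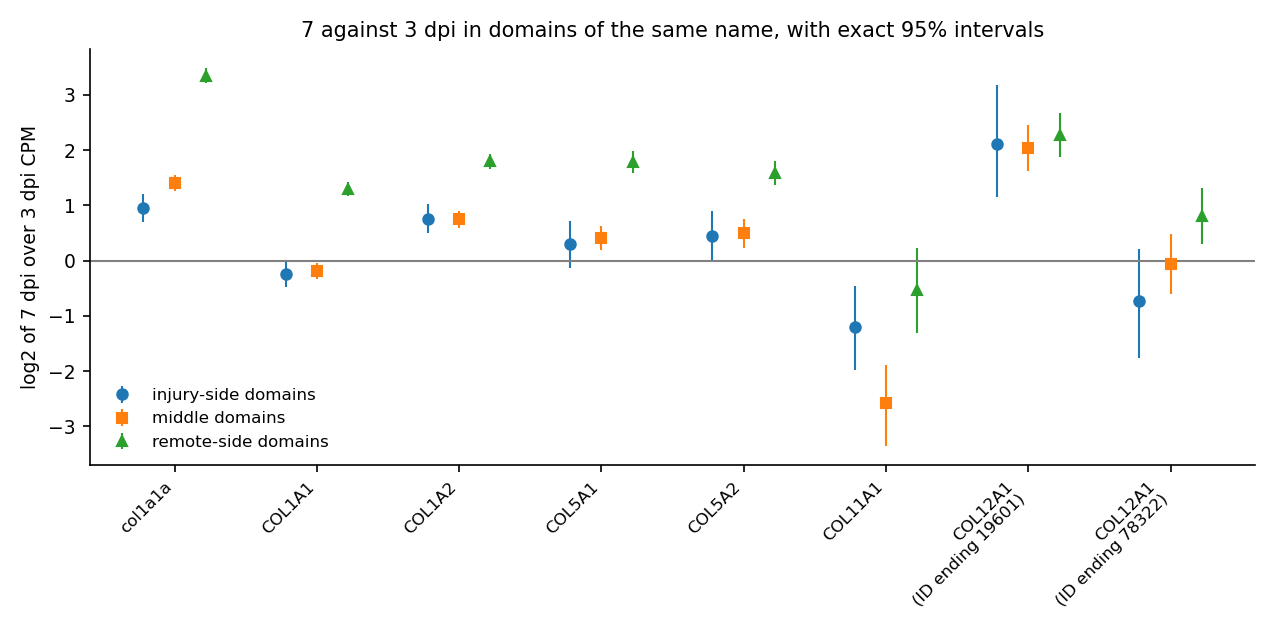
The log2 ratio of 7 over 3 dpi CPM for each gene (vertical axis) in injury-side (circles), middle (squares) and remote-side domains (triangles), with exact 95% intervals of the counts. The remote-side ratio is the highest of the 3 for each gene, an order that the medians of all genes also have (−0.73, −0.05 and 0.27 from injury side to remote side), and only COL11A1 lies below 0 in all 3 domains.

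The relative level of the duplicated alpha 1 genes was opposite in the 2 hearts, in a measure that does not depend on the scaling of libraries. Of the counts of both genes, COL1A1 held 61.2% (59.5 to 62.9) at 3 dpi, which is 1988 of 3249, and 29.95% (28.95 to 30.96) at 7 dpi, which is 2429 of 8110. The ratio of COL1A1 to col1a1a counts was 1.58 at 3 dpi and 0.428 at 7 dpi, 3.69 times apart (3.39 to 4.01, normal approximation). Whether reads that fit both genes were split or dropped is not stated in the labels.

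The same order held along most of both hearts. At 3 dpi the COL1A1 share was 65.5% (61.6 to 69.2), 60.1% (57.4 to 62.8) and 60.2% (57.5 to 62.8) from injury side to remote side. At 7 dpi it stepped down from 45.4% (41.3 to 49.5) through 33.1% (31.2 to 35.1) to 26.8% (25.6 to 28.04). Even the lowest domain at 3 dpi was above the highest at 7 dpi.

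Section by section, the COL1A1 share ran from 22.2% to 76.9% at 3 dpi with a median of 61.3%, and from 12.5% to 53.9% at 7 dpi with a median of 33.2%. It was above 50% in 30 of 35 sections at 3 dpi and in 2 of 24 at 7 dpi. The lowest value of each heart came from a section with fewer than 50 counts of the pair. Among sections with at least 50 counts of the pair, 26 of 28 were above 50% at 3 dpi (46.9% to 76.9%) and 2 of 19 at 7 dpi (18.9% to 53.9%). The Spearman correlation of the share with section number was −0.30 over 35 sections and −0.63 over 24, as a description of points that share a heart.

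**Figure D4:**
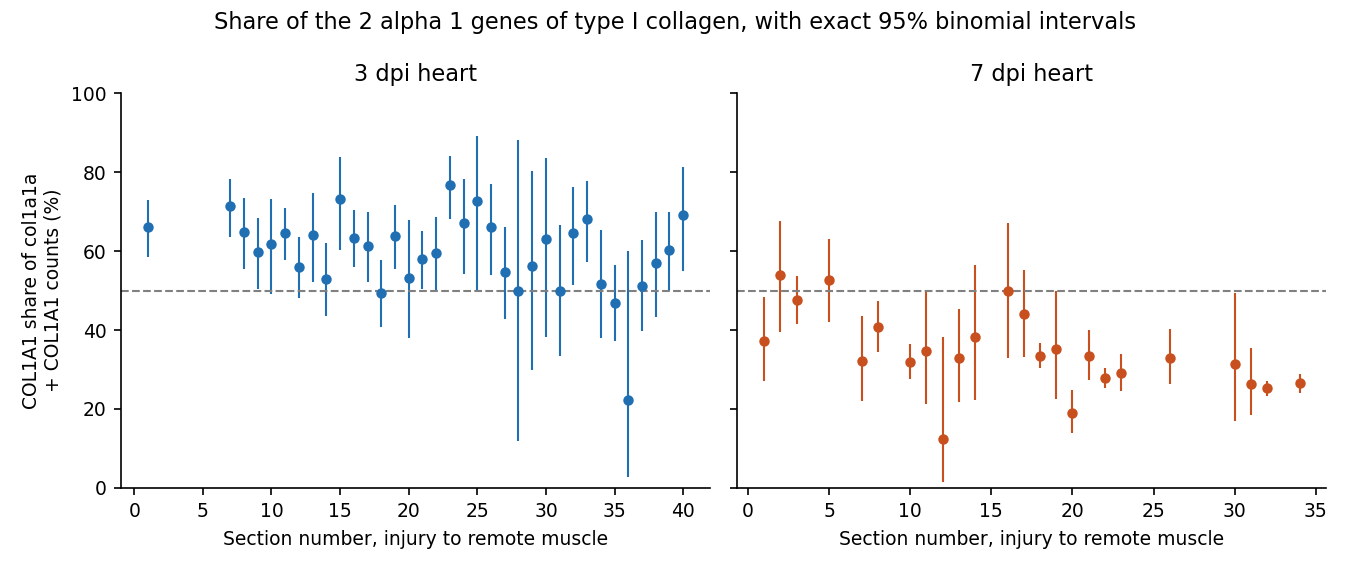
COL1A1 share of the col1a1a and COL1A1 counts in percent (vertical axis) in each kept section (horizontal axis), 3 dpi on the left and 7 dpi on the right, with exact 95% binomial intervals and a dashed line at 50%. Of the sections, 30 of 35 lie above the line at 3 dpi and 2 of 24 at 7 dpi.

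Within type I collagen as a whole, the alpha 2 chain differed less in share between the hearts than the alpha 1 chains. Of type I counts, col1a1a held 27.1% (25.9 to 28.4) at 3 dpi and 51.7% (50.8 to 52.7) at 7 dpi, COL1A1 42.8% (41.3 to 44.2) and 22.1% (21.3 to 22.9), and COL1A2 30.1% (28.8 to 31.5) and 26.2% (25.3 to 26.98). These are shares of 3′ end counts and not of protein chains. At 7 dpi the col1a1a share of type I counts went from 36.6% (33.4 to 39.9) on the injury side to 45.7% (44.1 to 47.4) in the middle and 56.7% (55.5 to 57.9) on the remote side, and at 3 dpi it was between 25.5% and 27.8% in all 3 domains.

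Grouped by collagen type, the share with the largest relative difference was that of type XI, which is COL11A1 alone among the 8 genes. It held 3.39% (2.95 to 3.86) of the counts of the 8 genes at 3 dpi and 0.459% (0.353 to 0.585) at 7 dpi, and at 3 dpi its share went from 5.53% (4.29 to 7.01) on the injury side to 1.75% (1.29 to 2.32) on the remote side. The other type XI alpha 1 gene, col11a1b, is outside these shares and had 49 counts at 3 dpi and 203 at 7 dpi, so the share is no measure of type XI collagen as a whole. Type V held 19.3% (18.3 to 20.3) and 15.9% (15.3 to 16.5) in the 2 hearts, type XII 4.51% (4.02 to 5.05) and 5.02% (4.66 to 5.39), and type I 72.9% (71.7 to 73.9) and 78.7% (77.98 to 79.4). The COL5A1 share of type V counts was 56.96% (54.1 to 59.8) and 58.1% (56.0 to 60.1), with overlapping intervals. The first COL12A1 gene held 48.6% (42.7 to 54.5) of the COL12A1 counts at 3 dpi and 78.6% (75.3 to 81.6) at 7 dpi.

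The place of the highest section also differed between the hearts. At 3 dpi it was section 1 for col1a1a, COL1A1, COL1A2, COL11A1 and the second COL12A1 gene (7 counts). It was section 7 for COL5A1, and section 13 for COL5A2 (22 counts) and the first COL12A1 gene (7 counts). Section 1 held 1.02% of the kept counts of that heart, and the share of all genes highest there is not given here. At 7 dpi it was section 3 for COL1A2 and COL11A1, section 5 for COL1A1, section 10 for the second COL12A1 gene, section 11 for COL5A1, section 16 for the first COL12A1 gene, section 19 for COL5A2 and section 32 for col1a1a. Section 32 alone held 1422 col1a1a counts, 25.03% of all in that heart, at 3576 CPM, and section 23 was next at 3253 CPM. Peaks with few counts moved with the processing: that of the first COL12A1 gene at 3 dpi lay in section 13, 16 or 28.

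The genes varied together along the 3 dpi heart, with higher correlations than along the 7 dpi heart. Over the 28 pairs of genes, Spearman correlations of CPM over sections had a median of 0.81 (lowest 0.49, highest 0.93) over 35 sections at 3 dpi and of 0.34 (lowest 0.04, highest 0.74) over 24 sections at 7 dpi. The summed level had a correlation with section number of −0.90 at 3 dpi and −0.13 at 7 dpi, and with the section's total count of −0.32 and 0.31. Points of a heart share libraries and depth, and these values are descriptions.

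Markers of some other cells moved with the collagens at 3 dpi. Across its sections the summed collagen level had a correlation of 0.92 with the summed epicardium and fibroblast markers. It was 0.86 with the leukocyte markers and −0.77 with the cardiomyocyte markers, and at 7 dpi these were 0.37, −0.11 and 0.03. Endothelium (0.15), smooth muscle and valve (0.36), erythrocyte (−0.26) and osteoblast and cartilage markers (0.23) had weaker correlations at 3 dpi. At 7 dpi these were 0.01, 0.25, −0.18 and 0.33. Leukocyte markers summed to 6683, 2663 and 861 CPM from injury side to remote side at 3 dpi, and to 4254, 4487 and 1612 CPM at 7 dpi. At 3 dpi 11 of 11 measured leukocyte genes were past 2-fold toward the injury, where 33.8% of all genes were. The epicardium and fibroblast list summed to 10490, 6097 and 3385 CPM at 3 dpi, with 6 of 9 higher and 0 lower, and to 13310, 14480 and 15600 CPM at 7 dpi. At 7 dpi that list was split, with 2 of 11 measured genes higher near the injury and 3 lower (all genes: 15.4% and 31.1%). TCF21 and POSTN had 0 injury-side counts in that heart and 47 and 67 remote-side counts. WT1 and TBX18 were detected near the injury, each from 12 counts. WT1 stood at 60.1 CPM there and 10.5 CPM on the remote side, and TBX18 at 60.1 and 56.3 CPM. Osteoblast and cartilage markers, which bear on type XI collagen, summed to 2.81 and 16.3 CPM over the 2 hearts. The part of any of these cells in the collagen levels was not tested.

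The genes most like the summed collagens along the 3 dpi heart were tuba5 (Spearman 0.95), PPIB (0.94), TIMP2 (ENSDARG00000075261, 0.92), CD63 (0.92), tuba8l4 (0.91) and MDK (0.91), among 1334 named genes with at least 200 counts. PPIB is a prolyl isomerase that helps collagen chains fold, and TIMP2 is an inhibitor of the metalloproteases that cut collagen. GAPDH (−0.90), RBP2 (−0.90) and ATP5F1D (−0.86) were at the other end. At 7 dpi the highest of 1290 genes were arf2b (0.72), FUBP1 (0.69), PPP1CB (0.63), YAF2 (0.60), EFEMP2 (0.60) and YTHDF2 (0.59), and in the 7 dpi heart PPIB had 0.44 and TIMP2 0.26.

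Genes whose products fold and modify collagen chains were the next group. SERPINH1, the collagen chaperone HSP47, has a pair of IDs: ENSDARG00000019949 had an injury-side excess of 4.40-fold at 3 dpi (2.29 to 8.11) and ENSDARG00000075954 3.70-fold (1.95 to 6.69), each from 16 injury-side counts. At 3 dpi, 5 of 8 measured genes of this list passed 2-fold toward the injury and 0 the other way, where 33.8% and 15.8% of all genes were. Their median log2 difference was 1.24 against 0.54 for all genes, and under median-of-ratios scaling 1 passed toward the injury. At 7 dpi 1 of 11 was higher and 1 lower, where 15.4% and 31.1% of all genes were. P4HA1, a subunit of the enzyme that hydroxylates collagen prolines, was 6.73-fold above the remote side (2.93 to 14.9, from 12 and 17 counts). CRTAP, a partner of prolyl hydroxylation, had 1 count on the injury side and 90 on the remote side.

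Between the hearts, most measured partners of fibril assembly were higher at 7 dpi. With at least 50 counts in either heart, 14 of 15 were at least 2-fold higher and 1 was lower, where 28.9% and 21% of all genes were. The lower one was an ID of TNC (tenascin C, a matrix glycoprotein), a symbol held by more than 1 ID. It had 82 counts at 3 dpi and 5 at 7 dpi and was named after its values were seen. Counting only genes with at least 50 counts in both hearts, 9 of 9 in the fibril assembly list were at least 2-fold higher at 7 dpi, where 22.3% of 3497 such genes were, with a median log2 difference of 1.92 against 0.18. They included DCN, a proteoglycan that binds fibrils (2.82-fold, 2.57 to 3.08), and SPARC, a collagen-binding matrix protein (3.39-fold, 3.10 to 3.70). Also among them was an ID of ITGB1, the shared subunit of collagen-binding integrins (13.01-fold, 11.3 to 15.03), a symbol held by more than 1 ID. DCN, SPARC and ITGB1 were named after their values were seen. In the folding list 3 of 7 were higher and 0 lower, SERPINH1 (ENSDARG00000075954) by 8.38-fold (6.84 to 10.4). In the breakdown list, of proteases and their inhibitors, 4 of 8 were higher and 0 lower, where 22.3% and 13.9% of all such genes were. Among the regulators 2 of 8 were higher and 1 lower, near those shares, with a median log2 difference of 0.19 against 0.18.

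Some partners were scarce at 3 dpi, so that they were measured through the 7 dpi heart. LOX, lysyl oxidase, which crosslinks collagen, had 33 counts at 3 dpi and 762 at 7 dpi, a 28.3-fold difference in CPM (19.97 to 41.4). THBS1, a matrix glycoprotein, had 40 and 1001 counts (30.7-fold, 22.4 to 43.2), and MMP9, a gelatinase, 18 and 102 (6.94-fold, 4.18 to 12.2). PRRX1, a mesenchymal transcription factor, has more than 1 ID, and ENSDARG00000033971 had 22 and 140 counts (7.80-fold, 4.95 to 12.8). The related collagen genes outside the 8 with enough counts were also higher at 7 dpi: col11a1b, the other type XI alpha 1 gene, had 49 and 203 counts (5.08-fold, 3.70 to 7.09), and col16a1, another fibril-associated collagen, 65 and 739 (13.9-fold, 10.8 to 18.2). Of these, col16a1 had at least 50 counts in both hearts, while col11a1b passed that minimum only through the 7 dpi heart, where it was higher. COL11A1 and col11a1b thus went in opposite directions between the hearts, and neither direction turned under median-of-ratios scaling.

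Most measured breakdown genes were highest toward the injury at 3 dpi, as were the collagens. Of 8 measured, 7 passed 2-fold toward the injury and 0 the other way, where 33.8% and 15.8% of all genes were. Their median log2 difference was 2.38, against 0.54 for all genes (5 of 8 and 1.55 under median-of-ratios scaling). TIMP2 (ENSDARG00000075261) was 15.3-fold higher (11.8 to 19.95). In the assembly list 4 of 10 were higher, near the share of all genes, and 0 lower, with a median log2 difference of 0.89. The 4 included FN1 (ENSDARG00000019815), fibronectin, at 8.53-fold (7.14 to 10.2) and ITGAV, an integrin alpha chain, at 3.86-fold (1.74 to 7.96, from 11 and 29 counts). Under median-of-ratios scaling 2 of the assembly list were higher and 2 lower. The other FN1 ID (ENSDARG00000006526), with 3817 kept counts at 3 dpi against 888, ran the other way, at 601 CPM on the injury side and 1068 on the remote side (0.562-fold, 0.476 to 0.660). Of the regulators, 4 of 8 were higher and 1 lower, with a median log2 difference of 0.58, close to the 0.54 of all genes. CCN2 was at 3.08-fold (2.29 to 4.08) and CCN1 at 2.70-fold (1.89 to 3.78), both matricellular factors. Under median-of-ratios scaling 0 regulators were higher and 3 lower. The one measured gene for propeptide removal, pcolcea, was 1.30-fold higher (0.648 to 2.38).

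At 7 dpi several of the partners with the largest differences between the ends were on the remote side instead, while LOX was not. TLL1, a protease that trims procollagen, had 0 counts on the injury side and 401 on the remote side, with 55.1% of the remote-side counts in 1 section. With a floor of 3 counts over the domain it was 14.03-fold lower near the injury, with an interval that started at 11.4. CCN2 (0 and 224 counts), tgfb1a, a TGF-beta ligand (0 and 66), and POSTN, periostin (0 and 67), were likewise undetected on the injury side. At that floor they were 7.84-fold, 2.31-fold and 2.34-fold lower there, with intervals that started at 6.32, 1.83 and 1.85. THBS1 was 6.99-fold lower there (3.52 to 16.3). MMP15, a membrane metalloprotease, has more than 1 ID. Of these, ENSDARG00000051962 had 2 and 49 counts, or 10.02 and 25.8 CPM, and the interval of its fold held 1 (0.0458 to 1.48). LOX was 2.74-fold above the remote side (2.12 to 3.51), with 416 and 152 CPM, and 59.04% of its injury-side counts came from 1 section. By list, 2 of 14 assembly genes were higher and 4 lower, near the 15.4% and 31.1% of all genes. Higher and lower were 2 and 2 of 11 breakdown genes, 1 and 1 of 5 propeptide and crosslinking genes, and 2 and 6 of 12 regulators. The median log2 differences of these 4 lists were −0.06, −0.07, 0.56 and −0.98 (−0.99 for the regulators with undetected genes at the floor) against −0.20 for all genes.

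**Figure D5:**
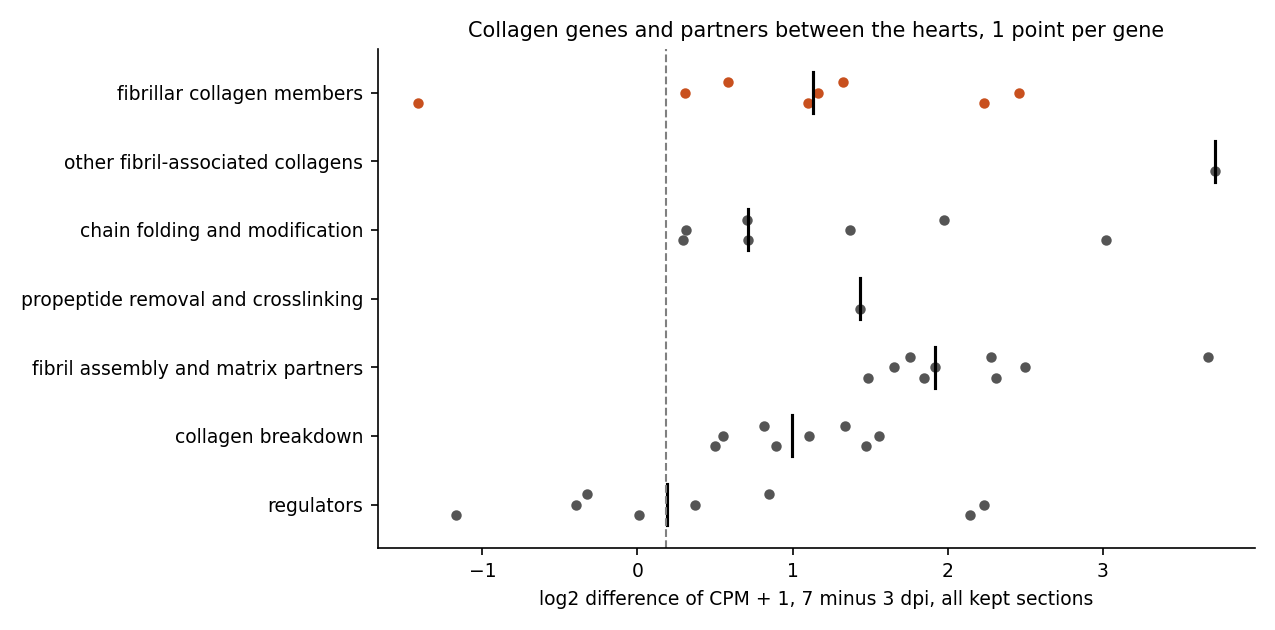
Each point is a gene with at least 50 counts in both hearts, placed by its log2 difference of 7 minus 3 dpi (horizontal axis) in the list it belongs to, with list medians as black bars and the median of all such genes, 0.18, as a dashed line. The 9 assembly genes lie at 1.49 or higher, and COL11A1 is the lowest collagen at −1.42.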

How the data were processed

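Counts per gene and section were used as deposited by the authors: whole-number counts per Ensembl gene ID, 1 table per heart, not normalized. BWA 0.6.2 was the aligner, per the submitters' processing notes. Build, gene annotation, treatment of reads fitting several genes and use of molecular identifiers are not given in the sources used here. These count columns carry bare section numbers as names, which the unit check cannot parse, so their unit stands as other. A separate look at every value found only whole numbers and none below 0. Columns of other samples numbered 0. Spike-in rows (171 counts at 3 dpi and 8631 at 7 dpi, 0.00429% and 0.260% of the total) stayed out of library sizes and comparisons.

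Sections were kept from 20% of the 75th percentile of section totals (24571 counts at 3 dpi, 16192 at 7 dpi), leaving 98.2% and 96.6% of the counts. To set the domains, the 2000 genes of highest mean outside the lists were put on the log2(CPM + 10) scale and z-scored, and the 3-segment split with the least squared error was taken, each segment being contiguous and holding 4 or more kept sections. Domain counts were summed and turned into CPM. Differences on the log2 scale used a pseudocount of 1 CPM. A gene was called higher or lower from 2-fold on that scale, among genes with at least 50 counts in the heart, or in either heart for 7 against 3 dpi. Folds are ratios of CPM without the pseudocount.

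All 8 collagens are named. From 7 pathway lists the rule named the genes with the largest absolute difference per list (the first 2 within each heart, the first between hearts). A gene that this rule names is not reported here. The collagens, lists and tests were chosen with earlier results of these data known. Alternatives numbered 13 planned and 4 added after seeing the data. The calculation was tested on simulated data. No protein or promoter sequence was used here. Tools were Python 3.11.15, numpy 2.4.6, pandas 2.3.3, scipy 1.17.1 and matplotlib 3.10.9.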

Additional observations from a re-analysis of the deposited data

Results flagged for a closer look

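The difference of col1a1a between the ends had opposite directions in the 2 hearts: its injury-side level was 4.22 times the remote-side level at 3 dpi and 0.797 times at 7 dpi. The difference between days is one of 1 heart against 1 heart and was not tested, and the 7 dpi value went to no difference without section 32.

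Collagen counts were also present in the sections left out of all comparisons for low totals. In the 5 left out at 3 dpi (sections 2 to 6), the 8 genes held 190 of 70293 counts, 2703 CPM together and 941 to 5759 CPM by section, and COL1A1 held 54.9% of the 102 alpha 1 counts. In the 14 left out at 7 dpi they held 326 of 111570 counts, 2922 CPM together and 993 to 7853 CPM by section, and COL1A1 held 36.2% of 152 alpha 1 counts. An uninjured heart was not analysed here, and these levels are above the limit that a count of 0 allows.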

How the results depend on the processing

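No paired analysis was possible because each day had 1 heart and the hearts share only the replicate number 1. No value past 2-fold turned direction under any alternative run. Collagens past 2-fold toward the injury at 7 dpi (1) numbered 3 with a section minimum of 5% or 40%, with 4 segments or without section 32, and 2 with equal domains or the mean of section CPM. At 3 dpi they numbered 4 (7) and, in the middle, 1 (8) with median-of-ratios factors from genes with at least 50 counts in every unit, and 1 in the middle with factors from all genes. With the former factors 456 of 4784 genes were higher and 1564 lower between the ends at 3 dpi. Those changed between injury sides (2) numbered 1 without each gene's largest section. Collagens with a lower injury-side minus remote-side difference at 7 dpi (6) numbered 5 to 8. Shares of all genes under the other alternatives are not given in this section, so these counts are not read as particular to the collagens.

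The summed log2 difference between the ends at 3 dpi (2.13) was 1.77 at the 40% minimum, 1.26 and 1.18 with the 2 median-of-ratios scalings, 1.90 without 2 abundant unnamed IDs, 2.48 with 4 segments and 1.94 without section 1, which was also the largest. At 7 dpi (0.36) it was 0.19 at 40%, 0.11 and −0.038 with those scalings, 0.11 with equal domains, 0.16 by mean of sections, −0.059 without section 34, 0.028 without the largest section and 0.64 without section 32. The summed 7 minus 3 dpi difference (1.42) was 1.53 at 40%, 1.23 with both scalings, 1.24 without those IDs, 1.06 by mean of sections, 1.63 without section 34, 1.28 without the largest section or section 32 and 1.48 without section 1. On the injury side (0.37) it was 0.086 at 5%, 0.64 with median-of-ratios scaling, 0.56 with equal domains or without section 1, 0.14 with 4 segments, 0.16 by mean of sections and 0.034 without the largest section.

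The 7 dpi shares of type I counts (col1a1a 51.7%, COL1A2 26.2%) were 50.1% and 27.7% without section 34 and 49.9% and 27.3% without section 32. Peaks moved at 5% to section 38 (COL1A2) and 29 (first COL12A1 gene) at 7 dpi, and at 40% to 10 (COL1A2), 7 (COL5A2), 8 (COL11A1) and 16 (first COL12A1 gene) at 3 dpi and 18 (first COL12A1 gene) at 7 dpi. The first COL12A1 gene peaked in section 28 at 3 dpi and the second in section 1 at 7 dpi with median-of-ratios scaling, the latter also without the abundant IDs. Windows of 3 sections put COL5A2 at 7 at 3 dpi, and col1a1a at 23, COL5A1 at 19 and the second COL12A1 gene at 2 at 7 dpi. The cause was not tested. Depth limits the injury-side values most, where domains held 264710 and 199560 counts and COL11A1 and the COL12A1 genes had 12 to 64.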
